A study of Mus musculus with 16 samples.

Results

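The enzymes described here build sugars on serine and threonine residues of proteins. They are 32 listed genes of mucin-type, O-mannose, O-fucose, O-glucose and O-GlcNAc synthesis, of 20622 genes in the total RNA table, found by matching each symbol to its gene identifier. The matching used no measured value, but the list was drawn up with earlier results of these data known. The study asked how loss of eIF4A2, an mRNA helicase that takes part in repression of translation, changes protein synthesis in lung adenocarcinoma cells, by ribosome profiling. Ribosome-protected fragments (RPFs), the pieces of mRNA that ribosomes shield from RNase I, were sequenced beside total cytoplasmic RNA taken from the same lysates before digestion. Reads in coding sequence were counted for RPFs, and total RNA was quantified by RSEM, which shares reads among isoforms.

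Both cell lines descend from KM cells, cultured from lung tumours of 1 male mouse that carried Rosa26 LSL-MYC/LSL-MYC among its engineered alleles. Recombination had been started by an adenovirus that expresses Cre from the surfactant protein C promoter, which is active in alveolar type II cells, so every library here carries transgenic MYC. KM_NTC cells carried a CRISPR vector with a non-targeting guide. KM_4A2cr cells carried a guide against the Eif4a2 coding sequence and are a pool of 4 clones chosen for loss of the protein on western blots. The paper describes puromycin selection of the transduced cells, and cholera toxin in the first culture of KM cells. For these libraries it describes no drug treatment of either line before lysis. Each line was measured in 4 replicates, which were independent experiments on different days, so there are 4 pairs of lysates and 16 libraries. Because all cells go back to 1 animal, the replicates measure repeat cultures and not different mice, and a pool of selected clones cannot be told apart from the edit itself.

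RPF libraries held 4512403 to 9621848 counts and total RNA libraries 5350920 to 9312624, and replicate 4 was the shallowest in both lines and both kinds of library. Values of single genes are given as CPM, counts scaled to a common library size, which may be compared between libraries but not between genes. Eif4a2 RPFs were 97.7, 122, 99.8 and 389 CPM in KM_NTC replicates 1 to 4 and 51.0, 88.4, 74.8 and 346 in KM_4A2cr. They were lower in KM_4A2cr in 4 of 4 pairs (log2 fold change -0.49, SE 0.15, adjusted p = 0.0941, edgeR), but both replicate 4 libraries stood far above the other replicates of their line. The 6 epithelial markers summed to 7550 to 11700 CPM of RPFs in KM_NTC and 9220 to 12800 in KM_4A2cr. The 7 alveolar type II markers summed to 45.9 to 139 CPM in KM_NTC and 71 to 171 in KM_4A2cr, nearly all of it Abca3, while Sftpc, Sftpb and Nkx2-1 were not listed among RPF transcripts. The 7 fibroblast markers summed to 2.63 to 21.4 CPM in KM_NTC and 4.59 to 14.3 in KM_4A2cr, mostly Pdgfra, and Col1a1 averaged under 1 CPM. The 4 leukocyte markers summed to 74.5 to 778 CPM in KM_NTC and 97.9 to 695 in KM_4A2cr, which was Cd68, a lysosomal protein abundant in macrophages, since Ptprc, Lyz2 and Adgre1 were each below 3 CPM in every library, and Cd68 RPFs were 86.2, 74.0, 105 and 777 CPM in KM_NTC replicates 1 to 4 and 126, 102, 96.1 and 695 in KM_4A2cr. Cd68 was thus high in replicate 4 of both lines. The 3 endothelial markers summed to at most 16.8 CPM.

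Most O-linked glycans are built sugar by sugar in the secretory pathway. Polypeptide GalNAc transferases (the Galnt family) add N-acetylgalactosamine to mucin-like stretches, C1galt1 with its chaperone C1galt1c1 makes the core 1 structure, Gcnt enzymes add branches, B3gnt and B4galt enzymes lengthen the chains, and sialyltransferases cap them. Separate enzymes start O-mannose chains in the endoplasmic reticulum, as on dystroglycan and cadherins, and add O-fucose and O-glucose to EGF-like or thrombospondin repeats, as on Notch. Ogt acts alone in the cytoplasm and nucleus, where it adds single GlcNAc residues. In epithelia of the airway and gut, mucin-type chains make up much of the cell surface and of mucus.

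Levels are compared between genes only as TPM, a share of all transcripts that the authors' processing corrected for transcript length. In KM_NTC total RNA, 8 of the 32 enzymes averaged above 100 TPM. The highest were Galnt3 at 267 ± 104 (SD, n = 4), the core 2 and core 4 branching enzyme Gcnt3 at 265 ± 60.3 (SD, n = 4), and the I-branching enzyme Gcnt2 at 257 ± 51.7 (SD, n = 4). Galnt1 at 191 ± 49.7 (SD, n = 4), C1galt1c1 at 182 ± 37.6 (SD, n = 4) and the core 2 enzyme Gcnt1 at 178 ± 37.8 (SD, n = 4) followed. Next were the chain-extending B3gnt3 at 139 ± 38.5 (SD, n = 4) and B3gnt2 at 139 ± 23.0 (SD, n = 4). GalNAc transfer, core and branching, and extension enzymes thus filled the top of the order. The list of 32 holds 9, 5 and 5 genes of these steps, so their place also reflects how it was drawn up.

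C1galt1 at 86.3 ± 22.0 (SD, n = 4), Poglut1 at 77.9 ± 25.8 (SD, n = 4) and Galnt7 at 76.6 ± 20.9 (SD, n = 4) came next. Below 10 TPM on average were 7 enzymes: Lfng, Galnt12, St3gal3, B4galt4, B4galt6, Mfng and Galnt6. Of 31 neighbours in the order, 29 overlapped in their ranges over the 4 KM_NTC libraries. The breaks fell between B3gnt2 and C1galt1 and between B4galt6 and Mfng. Mfng and Galnt6 averaged under 1 TPM in both lines, so the family is represented here without them.

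**Figure D1:**
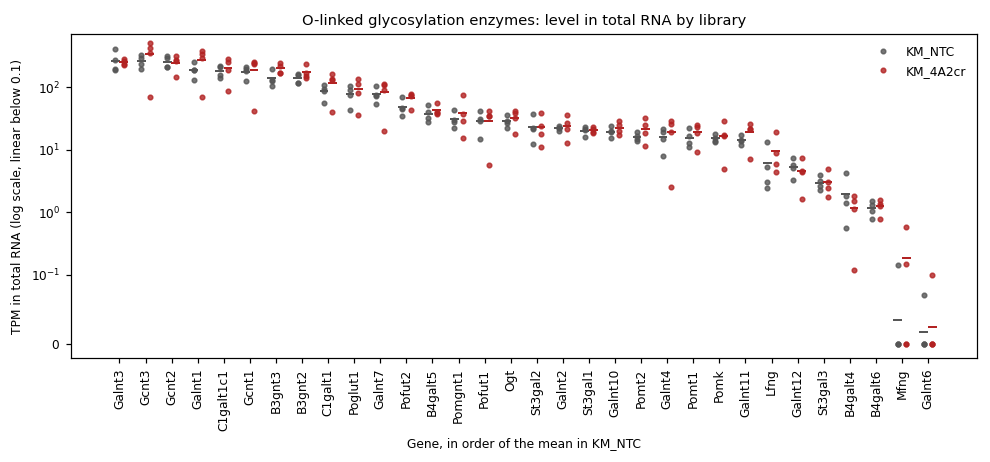
TPM in total RNA (vertical axis, log scale that is linear below 0.1) for the 32 enzymes, ordered by their mean in KM_NTC, with 1 point per library and a bar at the mean of 4. Galnt3, Gcnt3 and Gcnt2 averaged 267, 265 and 257 TPM in KM_NTC, while Mfng and Galnt6 stay near 0.

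The first comparison asked which enzymes were more or less occupied by ribosomes in KM_4A2cr than in KM_NTC. Of the 32 enzymes, 28 passed the filter on low counts. Galnt6 and Mfng had no transcript in the RPF table, and St3gal3 and B4galt6 were filtered out. Called here means an adjusted p under 0.1 over all genes tested, in a paired edgeR quasi-likelihood test. 5 enzymes were called, all higher in KM_4A2cr: the O-fucosyltransferase Pofut2, the chain-extending enzymes B3gnt2, B3gnt3 and B4galt5, and the initiating enzyme Galnt10. That is 17.9% of the 28, against 6.60% of 10291 genes called higher, and 0 were called lower, against 3.72%. At an unadjusted p under 0.05, 12 enzymes passed. The share of all genes at that unadjusted threshold was not counted, here or below. The fitted log2 fold change had a median of 0.34 over the 28 enzymes and -0.009 over all genes tested. It was above 0 for 24 of the 28, 85.7% against 48.9% of genes. In bulk cultures like these, a change in the make-up of the culture and a change within each cell cannot be told apart.

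The upstream sequences of the 5 enzymes called in RPFs over all pairs are shown. Whether they share a control was not tested. Each is the 250 bases before the RefSeq transcription start, on the gene's own strand, from build GRCm38.p6, which is not the build behind the counts. Capitals mark GC boxes (GGGCGG on either strand, where matches may overlap each other), and the E-box CACGTG, the core bound by MYC, was searched as well.
Pofut2 (chr10:77259050-77259299, plus strand): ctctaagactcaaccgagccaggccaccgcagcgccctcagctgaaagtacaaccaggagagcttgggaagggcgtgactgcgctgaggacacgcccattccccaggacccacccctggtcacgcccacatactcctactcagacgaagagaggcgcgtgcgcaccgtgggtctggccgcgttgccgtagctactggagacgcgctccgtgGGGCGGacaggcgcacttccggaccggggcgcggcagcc
B3gnt2 (chr11:22859736-22859985, minus strand): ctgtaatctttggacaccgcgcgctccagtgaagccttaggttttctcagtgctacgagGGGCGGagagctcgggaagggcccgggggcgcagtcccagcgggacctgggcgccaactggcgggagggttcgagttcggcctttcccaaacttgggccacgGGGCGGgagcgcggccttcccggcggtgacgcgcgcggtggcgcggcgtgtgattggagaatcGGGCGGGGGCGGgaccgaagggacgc
B3gnt3 (chr8:71701801-71702050, minus strand): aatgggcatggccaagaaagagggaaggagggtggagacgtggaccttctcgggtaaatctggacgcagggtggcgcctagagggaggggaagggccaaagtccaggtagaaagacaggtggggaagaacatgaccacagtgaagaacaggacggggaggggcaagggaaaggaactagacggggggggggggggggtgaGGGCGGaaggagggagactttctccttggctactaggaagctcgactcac
B4galt5 (chr2:167349179-167349428, minus strand): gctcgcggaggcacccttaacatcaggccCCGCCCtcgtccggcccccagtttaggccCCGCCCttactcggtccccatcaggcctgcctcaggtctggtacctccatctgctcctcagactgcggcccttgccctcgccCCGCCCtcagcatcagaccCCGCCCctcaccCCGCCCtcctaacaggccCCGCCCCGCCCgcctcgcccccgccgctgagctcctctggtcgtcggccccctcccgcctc
Galnt10 (chr11:57645192-57645441, plus strand): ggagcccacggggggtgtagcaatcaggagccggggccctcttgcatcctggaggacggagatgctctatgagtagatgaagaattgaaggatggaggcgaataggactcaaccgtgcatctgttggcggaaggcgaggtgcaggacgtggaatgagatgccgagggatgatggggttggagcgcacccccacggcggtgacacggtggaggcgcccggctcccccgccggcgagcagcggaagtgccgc
B4galt5 held 7 GC boxes, B3gnt2 4, B3gnt3 and Pofut2 1 each and Galnt10 0. None of the 5 windows held an E-box, which only says that those letters are not in this window. Over the 21 enzymes with a window in the table (29 windows), a GC box was present in 19 windows, 65.5%, and an E-box in 3, those of Lfng, Pomgnt1 and Pomt1, 10.3%. Of all 32851 windows in the table, 32.7% held a GC box and 6.02% an E-box. Those windows were not limited to genes tested here, so the shares cannot be read as a trait of the enzymes. Windows of Galnt1, Galnt2, Galnt4, Galnt12, C1galt1c1, Gcnt3, St3gal1, St3gal2, B4galt6, Pomk and Mfng are not shown here.

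Pofut2 adds fucose to thrombospondin type 1 repeats and had the smallest adjusted p. Its RPFs were 35.0, 16.6, 38.5 and 78.3 CPM in KM_NTC replicates 1 to 4 and 83.4, 34.2, 81.5 and 114 in KM_4A2cr. Every KM_4A2cr library lay above the KM_NTC library of its pair, although the lowest KM_4A2cr value, in replicate 2, was under the KM_NTC values of the other replicates. The log2 fold change was 0.98 (SE 0.15, n = 4 pairs, adjusted p = 0.0118, edgeR). By gene span, Pofut2 overlaps another annotated locus, Gm10941, in RefSeq. Reads were aligned to protein-coding transcripts, so only overlap within exons could mix counts, and exon overlap was not checked. By whole gene span, introns included, 16 of the 32 enzymes overlap another locus, among them Galnt10, Galnt1, Galnt7 and Gcnt2.

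All 3 called extension enzymes were higher in KM_4A2cr. B3gnt2, which builds poly-N-acetyllactosamine chains, had RPFs of 94.9, 61.3, 117 and 162 CPM in KM_NTC replicates 1 to 4 and 143, 115, 194 and 238 in KM_4A2cr. B3gnt3, which extends core 1 chains, had RPFs of 245, 184, 331 and 617 CPM in KM_NTC replicates 1 to 4 and 478, 317, 476 and 795 in KM_4A2cr. B4galt5, a galactosyltransferase that also makes lactosylceramide, had RPFs of 50.0, 31.96, 84.9 and 113 CPM in KM_NTC replicates 1 to 4 and 80.2, 50.4, 122 and 144 in KM_4A2cr. For each the KM_4A2cr value was above the KM_NTC value in each of 4 pairs, replicate 4 was the highest library of both lines, and the 2 lines overlapped once pairs are ignored. Log2 fold changes were 0.70 for B3gnt2 (SE 0.12, adjusted p = 0.0198), 0.66 for B3gnt3 (SE 0.14, adjusted p = 0.0331) and 0.55 for B4galt5 (SE 0.12, adjusted p = 0.041), all from edgeR. Galnt10, which prefers peptides that already carry GalNAc, had RPFs of 40.0, 28.1, 41.1 and 62.9 CPM in KM_NTC replicates 1 to 4 and 66.4, 42.8, 72.2 and 66.8 in KM_4A2cr. It was higher in 4 of 4 pairs, but by only 0.085 in pair 4, with a fitted log2 fold change of 0.56 (SE 0.15, adjusted p = 0.069, edgeR).

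**Figure D2:**
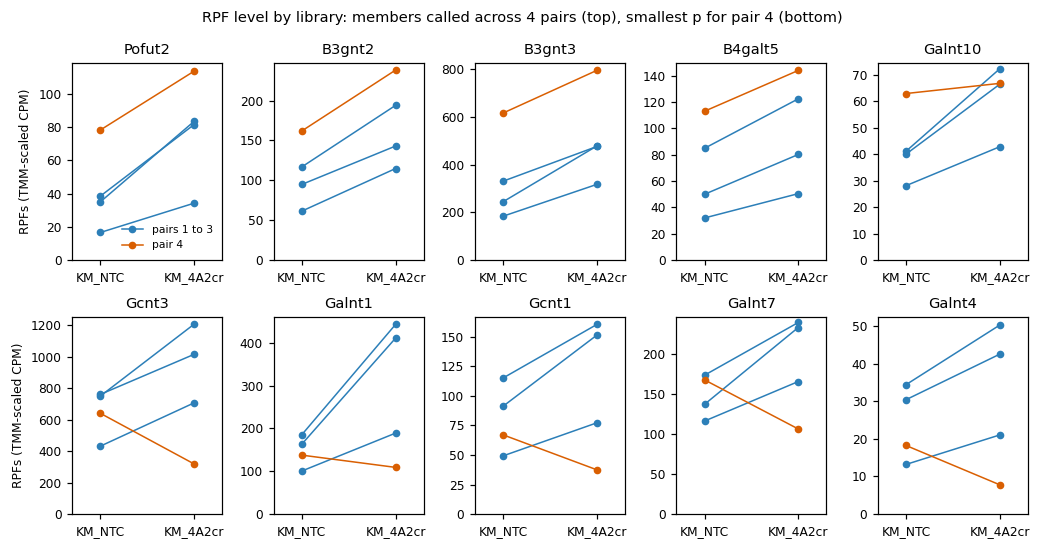
RPFs as TMM-scaled CPM (vertical axes, from 0), with a line joining the KM_NTC and KM_4A2cr library of each pair, for the 5 called enzymes (top) and the 5 with the smallest adjusted p for pair 4 (bottom). In the top row all 4 lines slope up, and in the bottom row pairs 1 to 3 slope up while pair 4 slopes down, as for Galnt1 from 138 to 109 CPM.

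Just outside the threshold were Galnt1 (log2 fold change 0.81, SE 0.25, adjusted p = 0.101, edgeR) and C1galt1 (0.60, SE 0.19, adjusted p = 0.109). DESeq2, RLE scaling factors and no filter on low counts each called both, for 7 enzymes in all. Beside these, 958 of 10291, 1130 of 10291 and 1227 of 14073 genes were called. Library size only called Galnt1, and upper-quartile factors and the stricter filter called neither. By step, the initiating Galnt enzymes ranged from -0.049 for Galnt12 to 0.81 for Galnt1, with 1 of 8 called. Core and branching enzymes ranged from 0.19 to 0.60 with 0 of 5 called, and O-mannose enzymes from 0.12 to 0.70 with 0 of 4. Extension enzymes were called in 3 of 4. The fourth, B4galt4, had the lowest fold change of all, -0.999 (SE 0.53, adjusted p = 0.298), on 48 counts summed over KM_NTC and 21 over KM_4A2cr. The sialyltransferases St3gal1 and St3gal2 stood at 0.35 and 0.32, neither called. Pofut1, which puts O-fucose on EGF repeats, stood at -0.018 and Ogt at -0.085, both near 0 and not called.

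These counts depended on single replicates. Leaving out pair 1, 2 or 3 left 2, 1 or 0 called enzymes in RPFs, with 6 at an unadjusted p under 0.05 where the count was 0 (edgeR). Calls over all genes dropped as well, to 1.53%, 0.914% and 0.281% called higher. Leaving out pair 4 raised the count to 22 of 28, all higher in KM_4A2cr, 78.6% of the enzymes against 19.1% of all genes called higher in those 3 pairs. In that fit the called enzymes ran from 0.31 for Galnt3 to 1.17 for Galnt1 in log2 fold change, and the 6 not called were Galnt2, Galnt12, St3gal2, B4galt4, Pofut1 and Ogt. It took in all 5 core and branching enzymes and all 4 O-mannose enzymes, and the edgeR adjusted p was 2.53e-05 for Galnt1, 0.00017 for C1galt1 and 0.000955 for Gcnt1. Without the replicate block 0 enzymes were called by edgeR, as were 0 of all genes, with 1 of 28 enzymes at an unadjusted p under 0.05.

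Total RNA was compared in the same way to see which differences were already present in mRNA. Of the 32 enzymes, 29 were tested, with Galnt6, Mfng and B4galt4 filtered out. 4 were called, all higher in KM_4A2cr, 13.8% against 4.35% of 10880 genes called higher, and 0 were called lower, against 1.78%, with 12 at an unadjusted p under 0.05. They were Pofut2, B3gnt3, B3gnt2 and the Notch fringe enzyme Lfng. The median log2 fold change was 0.27 over the 29 and 0.0099 over all genes. It was above 0 for 27 of the 29, 93.1% against 51.6% of genes.

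Pofut2 total RNA was 56.4, 35.3, 54.8 and 101 CPM in KM_NTC replicates 1 to 4 and 89.9, 47.0, 99.8 and 156 in KM_4A2cr. B3gnt3 total RNA was 215, 142, 210.0 and 387 CPM in KM_NTC replicates 1 to 4 and 422, 249, 388 and 450.1 in KM_4A2cr. Both were higher in KM_4A2cr in 4 of 4 pairs, with replicate 4 the highest of each line. The log2 fold changes were 0.65 for Pofut2 (SE 0.13, adjusted p = 0.0234) and 0.72 for B3gnt3 (SE 0.16, adjusted p = 0.0388), by edgeR. B3gnt2 total RNA was 177, 151, 233 and 298 CPM in KM_NTC replicates 1 to 4 and 238, 231, 384 and 353 in KM_4A2cr, for 0.50 (SE 0.14, adjusted p = 0.0798). It too rose in 4 of 4 pairs, and again the lines overlapped.

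Lfng adds GlcNAc to O-fucose on Notch and was a low transcript. Its total RNA was 16.0, 3.15, 2.97 and 7.86 CPM in KM_NTC replicates 1 to 4 and 24.4, 6.36, 11.6 and 8.76 in KM_4A2cr, and replicate 1 was by far the highest in both lines. The log2 fold change was 0.88 (SE 0.25, adjusted p = 0.0892, edgeR), higher in 4 of 4 pairs. In RPFs it was 17.5, 5.56, 6.57 and 13.0 CPM in KM_NTC replicates 1 to 4 and 32.5, 7.63, 16.0 and 9.16 in KM_4A2cr, higher in pairs 1 to 3 and lower in pair 4, and not called (0.60, SE 0.25, adjusted p = 0.191). B4galt5 and Galnt10, called in RPFs, stood at 0.39 (adjusted p = 0.154) and 0.39 (adjusted p = 0.126) in total RNA. Leaving out pair 1, 2 or 3 left 0 enzymes called in total RNA each time (6, 5 and 4 at an unadjusted p under 0.05, edgeR), and leaving out pair 4 gave 24 of 29, all higher, 82.8% against 17.8% of all genes called higher. Without pair 1, 2 or 3, 1.23%, 0.944% and 0.458% of all genes were called higher.

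**Figure D3:**
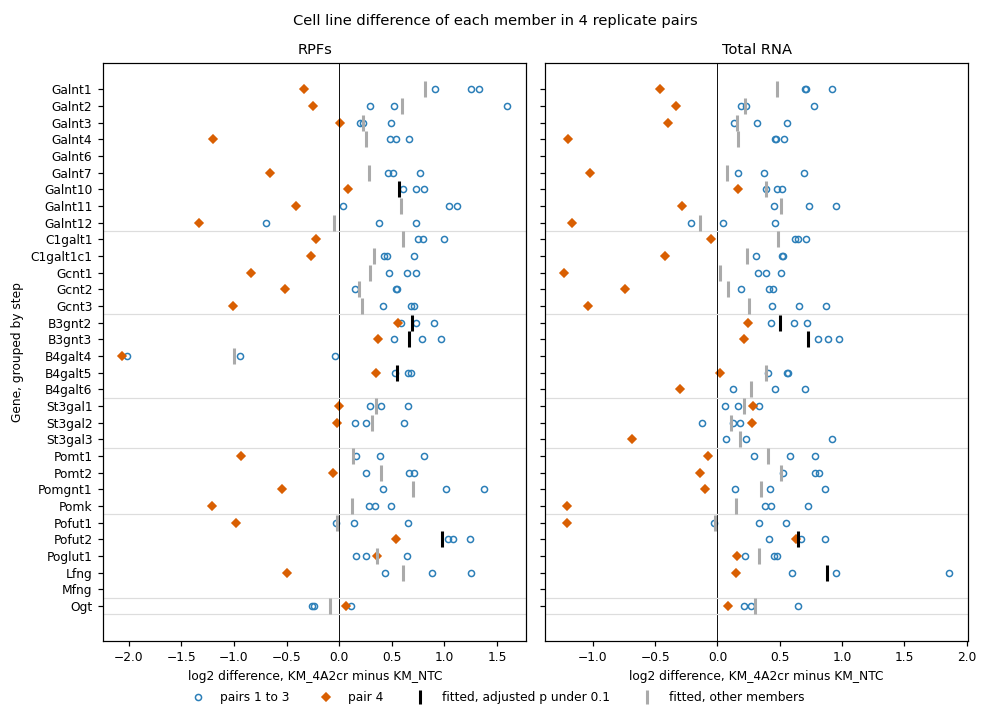
Log2 difference of CPM, KM_4A2cr minus KM_NTC (horizontal axes), in each of 4 pairs for the enzymes tested, grouped by step, in RPFs (left) and total RNA (right). Circles are pairs 1 to 3, diamonds pair 4 and bars the fitted value, black where the adjusted p is under 0.1; medians over the enzymes were 0.66, 0.53, 0.50 and -0.30 in RPFs of pairs 1 to 4.

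In no enzyme did all 4 KM_4A2cr libraries lie above all 4 KM_NTC libraries, in RPFs (against 0.981% of genes) or in total RNA (0.938%). Within pairs, 7 of 28 enzymes were higher in KM_4A2cr RPFs in all 4, 25% against 14.1% of genes. They were the 5 called ones with Galnt3 and Poglut1, the enzyme that puts O-glucose on EGF repeats. In total RNA 9 of 29 were, 31% against 12.4%: B3gnt2, B3gnt3, B4galt5, Galnt10, Lfng, Ogt, Pofut2, Poglut1 and St3gal1. More often an enzyme was higher in pairs 1 to 3 and lower in pair 4, as in 17 of 28 enzymes in RPFs (60.7% against 13.0% of genes) and 17 of 29 in total RNA (58.6% against 13.6%).

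Translational efficiency, the change in RPFs beyond the change in total RNA, was tested in 1 model of 16 libraries. It was called for 1 of 27 enzymes, Galnt1, which was higher in KM_4A2cr, 3.7% against 1.87% of 9989 genes called higher; 0 were lower, against 1.00%, and 6 had an unadjusted p under 0.05. The log2 difference was 0.33 (SE 0.099, adjusted p = 0.0998, edgeR), at the threshold. The call was lost when pair 1, 2 or 3 was left out, where Galnt1 stood at 0.33, 0.38 and 0.26. Calls over all genes dropped as well in those fits, to 0.101%, 0.161% and 0.129% called higher. Without pair 4, 4 enzymes were called, Galnt1, Pofut2 and Pomgnt1 higher and Ogt lower, but calls over all genes grew too, to 5.04% higher and 2.9% lower of 10072. Ogt stood at -0.40 (SE 0.13, adjusted p = 0.111) over 4 pairs, with RPFs of 99.3, 53.0, 46.8 and 24.1 CPM in KM_NTC replicates 1 to 4 and 107, 44.2, 39.6 and 25.3 in KM_4A2cr against total RNA of 93.8, 60.9, 68.6 and 68.2 CPM in KM_NTC replicates 1 to 4 and 109, 73.4, 107 and 72.4 in KM_4A2cr. Its RPFs were below KM_NTC in pairs 2 and 3, where its total RNA was above. Pofut2 stood at 0.32 (SE 0.12, adjusted p = 0.191). Over the 27 enzymes the median was 0.10, against -0.016 over all genes.

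The next comparison asked whether the cell line difference in pair 4 was the same as in pairs 1 to 3. Pair 4 was set against the others with earlier results of these data known, and since it is 1 pair, the spread in this test comes from pairs 1 to 3. In RPFs 14 of 28 enzymes had a lower difference in pair 4, 50%, against 11.6% of genes called lower, and 0 a higher one, against 5.00%. In total RNA 17 of 29 were lower, 58.6%, against 14.5%, and 0 higher, against 10.1%. The median difference over the enzymes was -1.07 in RPFs and -0.75 in total RNA on the log2 scale, against -0.034 and 0.0063 over all genes. Leaving out 1 of pairs 1 to 3 left 13 to 18 enzymes called lower in RPFs, beside 8.73% to 16.6% of all genes, and 16 to 19 in total RNA, beside 12.3% to 17.4%.

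All 5 core and branching enzymes were in this group in both kinds of library. Gcnt3 RPFs were 761, 432, 750.3 and 639.9 CPM in KM_NTC replicates 1 to 4 and 1015, 707, 1207 and 319 in KM_4A2cr. Gcnt1 RPFs were 115, 49.2, 91.2 and 66.9 CPM in KM_NTC replicates 1 to 4 and 160.2, 77.1, 151 and 37.4 in KM_4A2cr. Replicate 4 of KM_4A2cr was the lowest of all 8 libraries for both genes, while replicate 4 of KM_NTC lay within the range of the other KM_NTC libraries. The log2 difference between pair 4 and pairs 1 to 3 was -1.61 for Gcnt3 (SE 0.22, adjusted p = 0.00253) and -1.45 for Gcnt1 (SE 0.23, adjusted p = 0.00376) by edgeR. In total RNA the same differences were -1.70 and -1.64.

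Gcnt2 RPFs were 129, 105, 201 and 324 CPM in KM_NTC replicates 1 to 4 and 188, 154, 224 and 226 in KM_4A2cr. Here replicate 4 was the highest library of each line, and KM_4A2cr was above KM_NTC in every pair but that one. C1galt1, the core 1 synthase, had RPFs of 67.1, 30.7, 62.0 and 59.2 CPM in KM_NTC replicates 1 to 4 and 117, 51.7, 124 and 50.9 in KM_4A2cr, and C1galt1c1, which keeps it folded, had RPFs of 286, 173, 267 and 356 CPM in KM_NTC replicates 1 to 4 and 469, 232, 367 and 296 in KM_4A2cr. KM_4A2cr was above KM_NTC in pairs 1 to 3 for both, by 0.75 to 0.99 for C1galt1 and 0.42 to 0.71 for C1galt1c1, and stood at -0.22 and -0.27 in pair 4 (edgeR adjusted p of the difference = 0.0133 and 0.0286).

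Of the initiating enzymes, Galnt1, Galnt4, Galnt7 and Galnt10 were called for a lower cell line difference in pair 4 in RPFs. The differences of all 8 tested lay between -1.78 and -0.298. Galnt10 was still higher in KM_4A2cr in pair 4, by 0.085, and its call (-0.63, adjusted p = 0.0957, edgeR) was lost in 7 of 10 alternatives. Galnt1, one of the widely expressed members, had RPFs of 185, 101, 163 and 138 CPM in KM_NTC replicates 1 to 4 and 442, 189, 410.5 and 109 in KM_4A2cr. Galnt4 had RPFs of 34.4, 13.2, 30.4 and 18.3 CPM in KM_NTC replicates 1 to 4 and 50.2, 21.0, 42.5 and 7.81 in KM_4A2cr. Galnt7, which acts on peptides already carrying GalNAc, had RPFs of 137, 116, 174 and 168 CPM in KM_NTC replicates 1 to 4 and 233, 166, 239 and 106 in KM_4A2cr. For all 3, KM_4A2cr exceeded KM_NTC in pairs 1 to 3 and was below it in pair 4, and replicate 4 was the lowest KM_4A2cr library. The log2 difference between pair 4 and the others was -1.50 for Galnt1 (adjusted p = 0.00302), -1.78 for Galnt4 (0.00715) and -1.24 for Galnt7 (0.00539), by edgeR. Galnt4 overlaps Poc1b by gene span in RefSeq, and whether their exons overlap was not checked.

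In total RNA, Galnt2, Galnt3, Galnt11 and Galnt12 were called as well, while Galnt10 was not (-0.30). In RPFs the differences of these 4 were below 0 too but not called, at -1.08, -0.30, -1.24 and -1.62. Galnt2 had only 57 RPF counts summed over KM_NTC and 72 over KM_4A2cr. Whether the differences were unequal in the 2 kinds of library was not tested. Galnt3 total RNA was 392, 345, 591 and 1059 CPM in KM_NTC replicates 1 to 4 and 577, 431, 647 and 806 in KM_4A2cr. Replicate 4 was its highest library in both lines, with KM_NTC above KM_4A2cr only there. Galnt2 total RNA was 49.5, 38.22, 55.0 and 60.2 CPM in KM_NTC replicates 1 to 4 and 84.9, 43.5, 64.6 and 47.7 in KM_4A2cr. Galnt11 total RNA was 17.95, 18.9, 19.2 and 19.2 CPM in KM_NTC replicates 1 to 4 and 30.1, 26.0, 37.5 and 15.7 in KM_4A2cr. Galnt12 total RNA was 8.56, 3.24, 6.63 and 7.09 CPM in KM_NTC replicates 1 to 4 and 8.83, 4.58, 5.68 and 3.00 in KM_4A2cr. In pair 4 KM_4A2cr was below KM_NTC for all 3. The log2 differences between pair 4 and the others were -0.73 (Galnt3), -0.74 (Galnt2), -1.004 (Galnt11) and -1.33 (Galnt12), with edgeR adjusted p-values of 0.013, 0.0451, 0.0267 and 0.0803. B3gnt3 and B4galt5 had smaller differences in pair 4 of total RNA (0.22 and 0.018) than in pairs 1 to 3, and were called in this test (adjusted p = 0.0148 and 0.0851), with B4galt5 total RNA of 73.2, 53.0, 93.4 and 145 CPM in KM_NTC replicates 1 to 4 and 97.0, 78.0, 139 and 147 in KM_4A2cr.

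Among O-mannose enzymes, Pomt1, Pomgnt1 and Pomk were called for a lower cell line difference in pair 4 in RPFs, and Pomt2 and Pomk in total RNA. The uncalled differences were below 0 as well: -0.60 for Pomt2 in RPFs, and -0.62 for Pomt1 and -0.59 for Pomgnt1 in total RNA. Pomt1, which with Pomt2 transfers the first mannose, had RPFs of 55.0, 92.2, 148 and 91.7 CPM in KM_NTC replicates 1 to 4 and 96.1, 120.4, 165 and 47.9 in KM_4A2cr. Pomgnt1, which adds GlcNAc to that mannose, had RPFs of 21.8, 6.75, 12.6 and 14.3 CPM in KM_NTC replicates 1 to 4 and 57.0, 9.10, 25.8 and 9.69 in KM_4A2cr. Pomk, a kinase of the O-mannose chain on dystroglycan, had RPFs of 19.6, 6.25, 12.2 and 10.9 CPM in KM_NTC replicates 1 to 4 and 27.5, 8.00, 14.9 and 4.58 in KM_4A2cr. Each was higher in KM_4A2cr in pairs 1 to 3 and lower in pair 4, with adjusted p-values for the difference of 0.00879, 0.0312 and 0.0255 (edgeR). Pomt2 total RNA was 53.4, 32.6, 42.2 and 57.3 CPM in KM_NTC replicates 1 to 4 and 91.9, 47.1, 74.6 and 52.1 in KM_4A2cr (log2 difference -0.85, adjusted p = 0.0116). Pomt1 and Pomt2 overlap Uck1 and Gstz1 in the annotation.

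Pofut1 RPFs were 67.1, 67.6, 117 and 56.6 CPM in KM_NTC replicates 1 to 4 and 105, 74.7, 114 and 28.5 in KM_4A2cr, and its total RNA was 59.3, 52.0, 78.6 and 37.2 CPM in KM_NTC replicates 1 to 4 and 87.0, 65.5, 76.9 and 15.9 in KM_4A2cr. It was the lowest in replicate 4 of KM_4A2cr in both kinds of library, and also lowest in replicate 4 of KM_NTC, with a pair 4 difference of -1.24 in RPFs (adjusted p = 0.0215) and -1.51 in total RNA (adjusted p = 0.000979), by edgeR. Lfng was called in RPFs (-1.40, adjusted p = 0.0449). Enzymes called in neither kind of library for pair 4 were Pofut2, Poglut1, B3gnt2, St3gal1, St3gal2 and Ogt, of those tested in both. Poglut1 differed by 0.0055 (SE 0.25) and B3gnt2 by -0.18 (SE 0.21) in RPFs. St3gal1, St3gal2 and Ogt differed by -0.45, -0.40 and 0.19 there. Pofut2 differed by -0.59 (SE 0.22) in RPFs, with 0.54 in pair 4 and 1.03 to 1.25 in pairs 1 to 3, but by -0.027 in total RNA.

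The cell lines took unequal parts in the pair 4 difference. Against the geometric mean of replicates 1 to 3, replicate 4 of KM_4A2cr was lower for 20 of 27 enzymes in RPFs (B4galt4, at 0 counts there, left out) and 22 of 29 in total RNA, with medians of -0.83 and -0.55 on the log2 scale. Replicate 4 of KM_NTC was higher for 19 of 28 and 18 of 29, with medians of 0.24 and 0.32. Over all genes tested the medians of such differences lay between -0.047 and 0.023. Replicate 4 was the highest KM_4A2cr library of RPFs for 6 of 28 enzymes, and the lowest for 13. The 6 were the called Pofut2, B3gnt2, B3gnt3 and B4galt5 and the uncalled Galnt3 and Gcnt2. The shares of all genes beside these counts of enzymes were not worked out, so the counts cannot be read as a trait of the enzymes. Depth, Eif4a2 and Cd68 also set replicate 4 apart, and their part in these values was not tested.

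**Figure D4:**
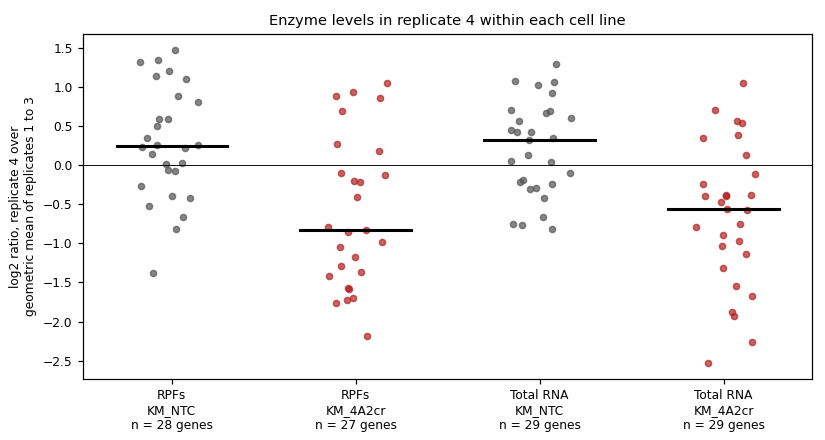
Log2 ratio of CPM in replicate 4 over the geometric mean of replicates 1 to 3 (vertical axis) within each cell line, 1 point per enzyme with a bar at the median, for RPFs and total RNA. KM_NTC medians are 0.24 and 0.32, and KM_4A2cr medians -0.83 and -0.55; points spread from -2.53 to 1.47.

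A list of other O-glycan enzymes, none of them among the 32, was counted in the same way. Of its 44 genes, 25 were tested in RPFs and 3 were called, all higher. The 3 were the xylosyltransferases Gxylt1 (0.92) and Rxylt1 (0.52) and the galactosyltransferase B4galt1 (0.61). The median log2 fold change was 0.24, with 24 of 25 above 0, beside 48.9% of all genes tested. In pair 4 against pairs 1 to 3, 17 of the 25 were called lower in RPFs and 0 higher, with a median of -1.15, and 20 of 27 were called lower in total RNA and 0 higher. The shares of all genes for that test are those given above, 11.6% lower and 5.00% higher in RPFs and 14.5% and 10.1% in total RNA, here and for the next lists.

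Of 24 genes that make sugar nucleotides or carry them into the Golgi, 23 were tested and 2 were called higher in RPFs: the sialic acid activating enzyme Cmas (0.42) and the UDP-GlcNAc transporter Slc35a3 (0.92). The median was 0.17. Against pairs 1 to 3, the difference in pair 4 was lower for 6 in RPFs, all of them Slc35 transporters (Slc35a1, Slc35a3, Slc35b4, Slc35c1, Slc35d1 and Slc35d2), and 1, the hexosamine enzyme Pgm3, was higher. In total RNA 7 were lower, the same 6 transporters and Nanp, and 4 were higher: Gfpt1, Nans, Pgm3 and Tsta3.

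Of 37 proteins that carry these sugars, 24 were tested and 8 were called in RPFs. The 6 higher ones were the Notch ligands Dll1 (1.87) and Jag2 (0.49), the adhesion proteins Cdh1 (0.44) and Pcdh1 (0.59), the sialomucin Podxl (0.56) and the proteoglycan Sdc1 (0.46). The 2 lower ones were N-cadherin, Cdh2 (-0.82), and thrombospondin 1, Thbs1 (-0.74), which holds the repeats that Pofut2 modifies. In pair 4 against pairs 1 to 3, 8 of the 24 were called lower in RPFs, Dll1 and Cdh2 among them, and 11 of 24 in total RNA, with 0 higher in either. For the calls over 4 pairs in RPFs, all 3 lists stand beside 6.60% of all genes higher and 3.72% lower.

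**Figure D5:**
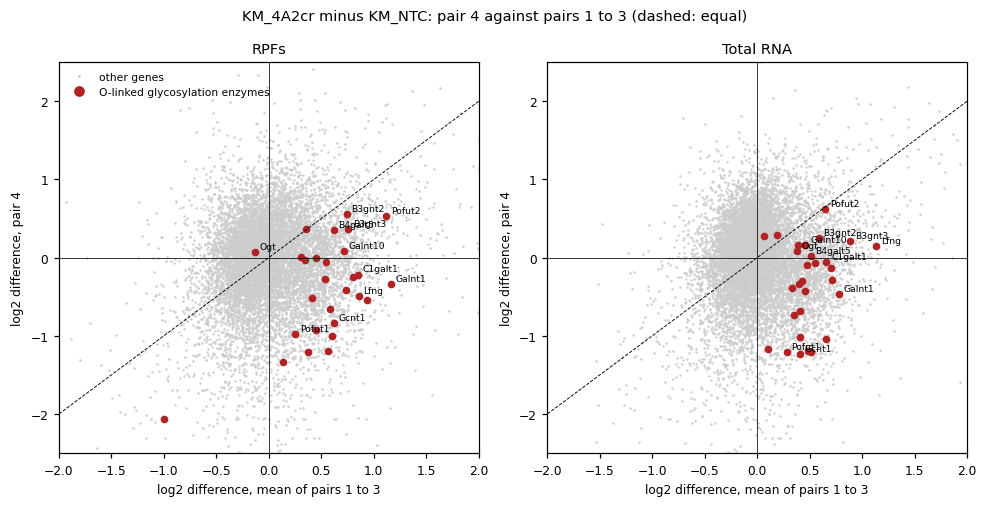
Log2 difference KM_4A2cr minus KM_NTC in pair 4 (vertical axes) against the mean of pairs 1 to 3 (horizontal axes) for all genes tested (grey) and the enzymes (red), in RPFs (left) and total RNA (right); genes beyond the axes are not drawn, and the dashed line marks equal values. Most enzymes lie right of 0 and under the dashed line, with pair 4 medians of -0.30 in RPFs and -0.29 in total RNA.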

How the data were processed

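Ribosome profiling and total RNA libraries of KM_NTC and KM_4A2cr cells, 4 replicates each, were grouped by their titles. The authors trimmed reads with cutadapt 1.18, aligned RPFs with BBmap to the most abundant protein-coding transcript of each gene, removed duplicates with UMI-tools 1.0.1 and deposited whole-number counts of RPFs over the coding sequence without its ends, 1 library per table, so reads of other isoforms and of the first and last codons do not enter. For total RNA the authors aligned with Bowtie2 2.3.5.1 and deposited RSEM 1.3.3 expected counts and TPM values per isoform, both on GENCODE vM27. Whether strand was used in counting is not given in the sources used here, so any reads from exons that overlap another gene cannot be assigned.

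Counts were summed per gene identifier, expected counts being rounded after summing. Genes were filtered with edgeR's filterByExpr, scaled by TMM and tested with the edgeR 4.0.16 quasi-likelihood test (R 4.3.3), with the replicate number as a block and Benjamini-Hochberg adjustment over all genes tested. CPM are TMM-scaled, and log2 values of single pairs use a prior count of 2. SE are the log2 fold change divided by the root of the F statistic. Translational efficiency was tested as a line-by-kind term in 1 model that also held a term for each lysate, and pair 4 by a term for its extra difference between the lines. The replicate numbers paired the samples: deviations from the line means of same-numbered libraries correlated at 0.575 to 0.782 in RPFs and 0.611 to 0.756 in total RNA across genes. Alternatives were no block, DESeq2 1.42.0, other scalings, filters and thresholds, and leaving out each pair. Every enzyme was accounted for, those called in any comparison were given by library, and list members called in RPFs were named. The enzymes, the lists and the split of pair 4 were chosen with earlier results of these data known. Upstream sequences are from RefSeq, GRCm38.p6. 1 engineered allele shared by all libraries is not reported here.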

Additional observations from a re-analysis of the deposited data

Results flagged for a closer look

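Within each line and kind of library, 113 groups of 4 values were searched for 1 library far from the other 3, and 5 were found, where chance flags about 1 in 20 groups, or 5.6 here. C1galt1 RPFs in KM_NTC replicate 2 were 30.7 CPM against 59.2 to 67.1 in the others. Galnt10 RPFs in KM_4A2cr replicate 2 were 42.8 CPM against 66.4 to 72.2. St3gal3 total RNA in KM_4A2cr replicate 1 was 6.38 CPM against 3.22 to 3.46. In KM_4A2cr replicate 4, Gcnt1 total RNA was 116 CPM against 390.0 to 475 and Pofut1 total RNA was 15.9 CPM against 65.5 to 87.0.

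The cell line difference in pair 4 departed from that in pairs 1 to 3 for 14 enzymes in RPFs and 17 in total RNA, each lower in pair 4. For Galnt1 the cell line difference was larger in RPFs than in total RNA by 0.33 on the log2 scale.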

How the results depend on the processing

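Leaving out 1 pair gave 0 to 22 called enzymes in RPFs (5 over all pairs), 0 to 24 in total RNA (4) and 0 to 4 in translational efficiency (1), the highest each time without pair 4. For pair 4 against the others it gave 13 to 18 in RPFs (14) and 16 to 19 in total RNA (17). Without the replicate block 0 enzymes, and 0 of all genes, were called in RPFs, total RNA, translational efficiency or either test of pair 4. In total RNA 2 of 29 enzymes were called with upper-quartile factors, beside 541 of 10880 genes called in either direction. Library size only also gave 2, beside 1130 genes, and a threshold of 0.05 gave 2, beside 321. With the isoform counted for RPFs only, 2 of 28 were called, beside 500 of 10403 genes. No filter on low counts gave 7 of 32, beside 1268 of 17652 genes. Translational efficiency had 0 called with DESeq2, upper-quartile factors, library size only, the stricter filter or a threshold of 0.05, beside 68 to 290 genes. With no filter 2 of 30 were called, beside 470 of 13775 genes. Scaling by library size only put the median of all genes at -0.145 in RPFs and -0.146 in total RNA, where the enzyme medians were 0.21 and 0.11. Counts in RPFs and for pair 4 stayed within 1.5 times of the main value under all other alternatives. For RPFs, library size only called 6 of 28 enzymes, beside 1619 of 10291 genes. Without pair 4 the RPF median of the enzymes was 0.57 (0.34 over all pairs) and that of total RNA 0.45 (0.27), a move within the SD of the pair medians, which pair 4 itself widens. No call changed direction in any alternative. Uncalled values near 0 did: without pair 4 Galnt12 and Pofut1 stood at 0.21 and 0.25 in RPFs (-0.049 and -0.018 over all pairs) and at 0.089 and 0.28 in total RNA (-0.14 and -0.022), where Pofut1 was then called (adjusted p = 0.0828, edgeR), and with library size only Pomt1 and Pomk in RPFs and Galnt3, Galnt7, Gcnt1, Gcnt2, St3gal2 and Pomk in total RNA dropped below 0. The smallest TPM and counts were those of B4galt4, B4galt6, St3gal3, Galnt6 and Mfng, where the lack of a call says little. How large a difference could have shown at this depth was not worked out. Pair 4 is 1 pair at the lowest depth.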
